A study of Homo sapiens with 48 samples.

Results

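The clustered histone genes are the gene copies that supply new histones while DNA is replicated, and they were followed here in K562 cells after imatinib. K562 is a human leukaemia line with the fusion kinase BCR-ABL1, which imatinib inhibits. A probe set was taken as a member where any gene symbol of the platform annotation began with H1- and a digit, H2AC, H2BC, H3C or H4C, or had an older name of the HIST1H to HIST4H series. The rule found 63 members among 22283 probe sets, of which 22215 measure genes and 68 are array controls. The members carried 62 of the 13119 distinct gene symbols on the array, with 43 members naming 1 gene and 20 naming several, up to 14. Every member was tested, since no probe set was removed for a low level.

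The 2 groups were K562 cells treated with 1 micromolar imatinib for 24 hours (24 samples) and mock-treated K562 cells (24 samples). The samples carried 8 letters, A to H, each with 3 imatinib and 3 mock samples; what the letters stand for is not stated, and they are called sets. In imatinib samples the keyword line reads mock treated, whereas title and description give imatinib; groups follow the title. Nothing in the labels says that samples or sets came from separately treated cultures, so p-values measure only the spread of these samples, and that spread may be technical. Per the labels, RNA of imatinib samples was isolated with a column kit alone and RNA of mock samples with Trizol followed by that kit, and the imatinib samples also received less spike RNA. Treatment and isolation method therefore cannot be told apart in any value below. No series of doses or times was among the samples, and both groups are the same line.

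Nucleosomes wrap DNA around a core of the histones H2A, H2B, H3 and H4, and the linker histone H1 binds where the DNA enters and leaves. The replication-type genes for these proteins lie in clusters, have no introns, and are transcribed mainly in S phase, when the cell needs histones for new DNA. Most of their mRNAs end in a stem-loop in place of a poly-A tail, bound by the protein SLBP, although some of the genes also give tailed mRNAs, as has been described in differentiating cells. Array targets made by the standard protocol are usually primed on the tail. The values may therefore reflect tailed transcripts, and the share of each gene's mRNA that is tailed was not measured. In bulk samples, fewer cells in S phase and less histone mRNA per cell cannot be told apart.

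Histone genes were more often higher than lower after imatinib, and among members of a single histone type H2A had the highest median change. In the combined comparison 38 of 63 members were higher, 6 were lower and 19 did not pass an adjusted p of 0.05 in limma. Of all 22215 probe sets tested, 65.2% passed, with 39.3% higher and 25.8% lower, so the count of lower members lay below that background and the count of higher members above it. The median log2 change was 0.12 over the members and 0.05 over all probe sets tested. Most changes were small: 2 members were called and at least 2-fold higher, against 1.49% of all probe sets. Where only the 37 members with a level at or above the probe set median (log2 6.43) were counted, 25 were higher and 5 lower, against 40.2% and 40.1% of all probe sets at that level.

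By histone type, 11 of 13 H2A members were higher and 0 lower, with a median log2 change of 0.51 and changes between 0.00 and 1.94. The H2A counts were the same with centred arrays and after quantile normalization. Of 18 H2B members 9 were higher and 3 lower, with a median of 0.07. The H2B counts were 8 and 4 with centred arrays and 13 and 2 after quantile normalization. Of 9 H3 members 6 were higher and 0 lower, with a median of 0.11, while 5 were higher and 1 was lower with centred arrays and after quantile normalization. Of 14 H4 members 7 were higher and 2 lower, with a median of 0.07, against 6 and 3 with centred arrays and 6 and 2 after quantile normalization. Of 7 linker histone H1 members 3 were higher and 1 lower, with a median of 0.11, against 2 and 1 with centred arrays. A further 2 members were annotated with both H2A and H3 genes, and both were higher. In the combined comparison over all probe sets, 39.3% were higher and 25.8% lower, with a median change of 0.05. The share of higher H1 members and the medians of H2B and H4 lay near these values. Each of these type counts comes from probe sets that partly share genes, and no test compared the types with one another.

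**Figure D1:**
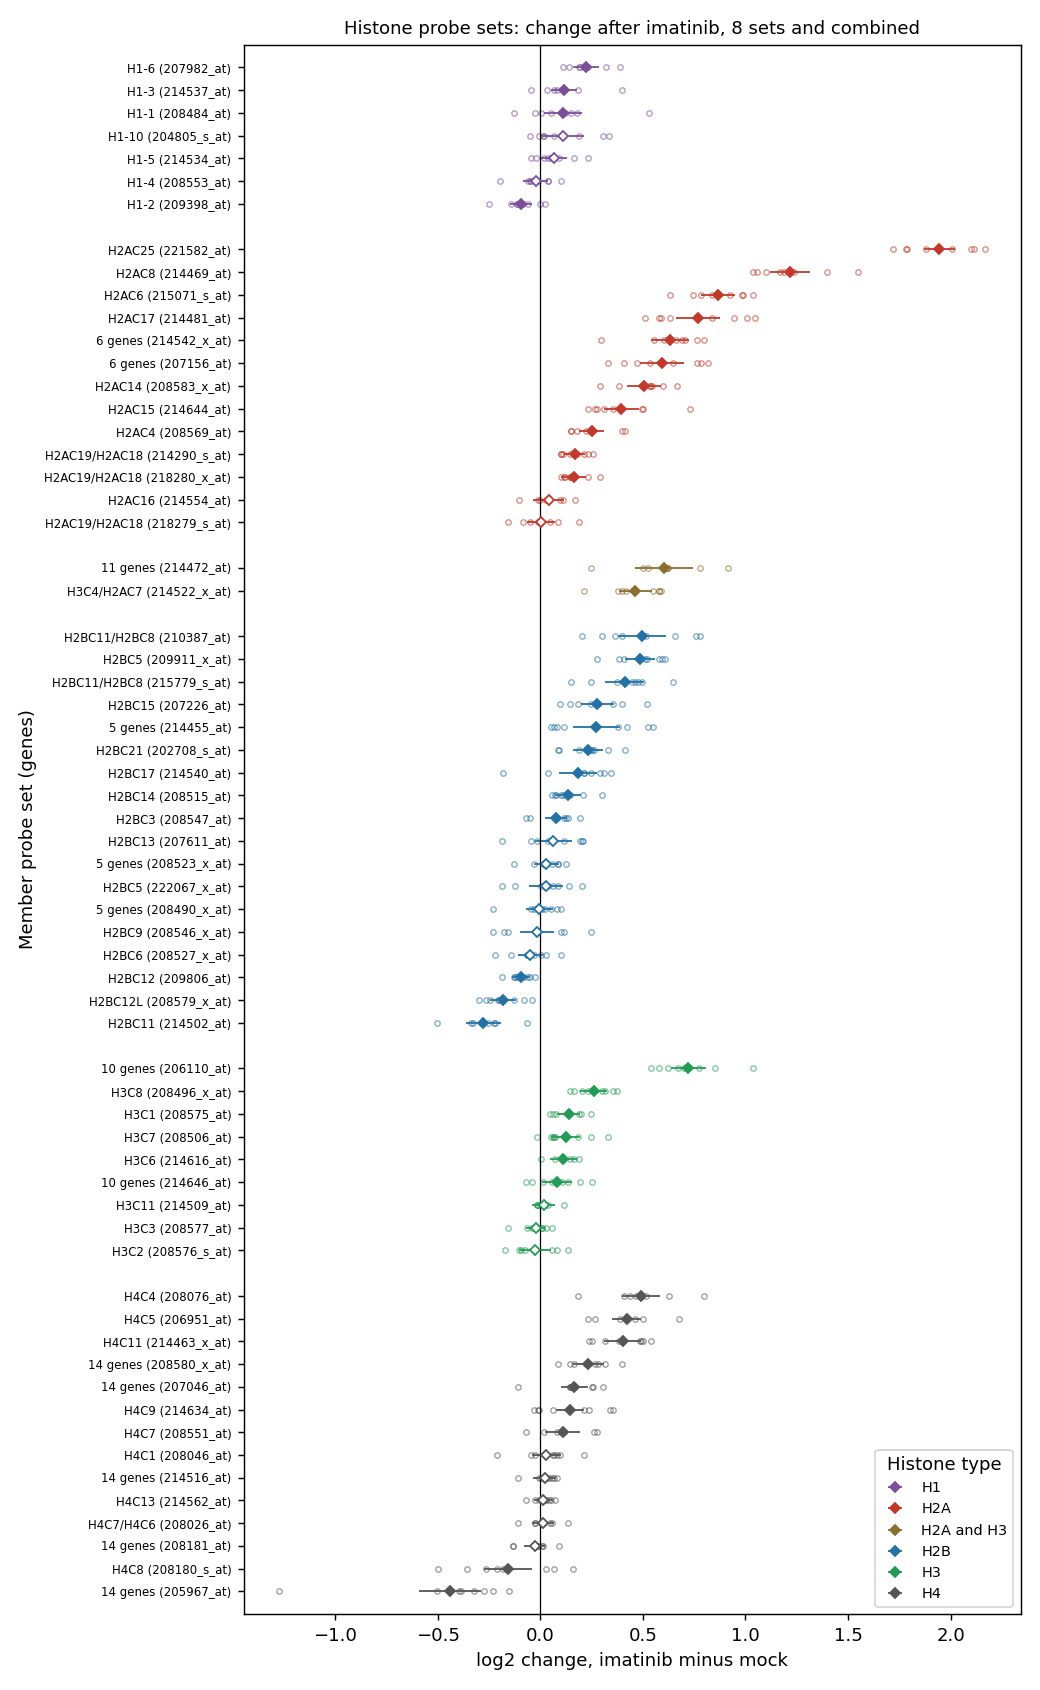
Change of all 63 histone probe sets on the log2 scale (imatinib minus mock), grouped by histone type; each row is a probe set with its genes. Open circles are the 8 sets, diamonds the combined estimate with its 95% confidence interval, and a diamond is filled where the adjusted p was below 0.05. The H2A rows reach 1.94 and none of them is called lower, whereas H2B and H4 rows lie on both sides of 0.

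The same direction in every set was common among the members. The change was above 0 in all 8 sets for 29 members, against 19.8% of all probe sets, and below 0 in all 8 sets for 4 members, against 19.2%. In 12 members every imatinib sample lay above every mock sample of its set in all 8 sets, against 5.43% of all probe sets. In 0 members did every imatinib sample lie below every mock sample in all 8 sets, against 8.60%. In all 8 sets fitted alone, 9 members were called higher each time, against 3.94% of all probe sets, and 0 were called lower each time, against 6.57%.

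The H2A gene with the largest change was H2AC25, the H2A gene of the HIST3 cluster on chromosome 1, and H2AC8 and H2AC6 of the large HIST1 cluster on chromosome 6 followed. The promoter windows of these 3 genes are shown because the members' promoters are known to share short motifs, and that of H2BC12, the gene of the brightest H2B member, with a change close to 0, is set beside them. Each run is 300 bases in the direction of the gene around its RefSeq start (GRCh38.p14), at chr1:228457824-228458123 on the minus strand for H2AC25, chr6:26216671-26216970 on the plus strand for H2AC8, chr6:26123922-26124221 on the plus strand for H2AC6 and chr6:27146809-27147108 on the minus strand for H2BC12. Capitals mark matches, on either strand, of the octamer ATTTGCAT, the CCAAT box (letters CCAAT) and the TATA box (letters TATAAA); where a match on both strands overlaps, the capitals run together.
H2AC25: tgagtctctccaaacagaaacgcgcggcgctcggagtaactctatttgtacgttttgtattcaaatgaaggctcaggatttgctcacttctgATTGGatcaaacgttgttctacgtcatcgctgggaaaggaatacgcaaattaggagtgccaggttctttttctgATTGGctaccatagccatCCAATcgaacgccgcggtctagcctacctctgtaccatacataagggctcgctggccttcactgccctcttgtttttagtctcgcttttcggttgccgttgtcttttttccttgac
H2AC8: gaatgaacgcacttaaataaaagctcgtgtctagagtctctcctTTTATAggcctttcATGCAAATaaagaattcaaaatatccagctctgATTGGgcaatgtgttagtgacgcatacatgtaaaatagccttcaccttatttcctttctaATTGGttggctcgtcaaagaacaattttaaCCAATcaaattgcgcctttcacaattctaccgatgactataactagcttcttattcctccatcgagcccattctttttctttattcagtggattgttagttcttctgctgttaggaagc
H2AC6: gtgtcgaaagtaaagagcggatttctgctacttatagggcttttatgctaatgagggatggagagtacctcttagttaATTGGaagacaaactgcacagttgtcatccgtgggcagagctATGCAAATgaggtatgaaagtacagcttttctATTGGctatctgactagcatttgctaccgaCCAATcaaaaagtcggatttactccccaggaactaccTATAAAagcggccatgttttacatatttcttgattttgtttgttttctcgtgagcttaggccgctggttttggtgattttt
H2BC12: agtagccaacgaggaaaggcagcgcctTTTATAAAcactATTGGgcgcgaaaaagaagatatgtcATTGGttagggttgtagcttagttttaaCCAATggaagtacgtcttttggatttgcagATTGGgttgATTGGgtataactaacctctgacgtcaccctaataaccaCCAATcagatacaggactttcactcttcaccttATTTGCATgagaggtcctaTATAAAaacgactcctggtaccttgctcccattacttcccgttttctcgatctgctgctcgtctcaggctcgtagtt

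The windows of H2AC8, H2AC6 and H2BC12 each held 1 octamer match, and that of H2AC25 held 0. All 4 held the CCAAT letters, 3 matches in each H2A window and 6 in that of H2BC12. The TATA letters matched 0 times in the H2AC25 window, 1 time in those of H2AC8 and H2AC6 and 3 times in that of H2BC12. Over the 56 of 62 member genes with a window in the RefSeq table, the octamer occurred in 8 of 13 H2A windows (61.5%), 12 of 15 H2B windows (80%), 1 of 8 H3 windows (12.5%), 0 of 7 H1 windows and 0 of 13 H4 windows, against 1.8% of 27305 windows of all genes. The CCAAT letters occurred in 80.4% of member windows against 35.7% of all windows, and the TATA letters in 64.3% against 12%. Neighbouring H2A and H2B genes share much of their windows, and the H3 window with the octamer, that of H3C4, has the same coordinates as that of H2AC7, so these shares are not independent counts. A match describes these letters only.

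H2AC25 had a lowest, median and highest log2 level of 10.75, 11.66 and 12.44 in imatinib samples, against 8.83, 9.69 and 10.77 in mock samples. Within every set all imatinib samples lay above all mock samples, and the small overlap of the pooled ranges comes from sets that differ in level. The log2 change was 1.94 ± 0.04 (SE, n = 24 per treatment), or 3.85-fold, with a limma adjusted p of 1.12e-39. It ranged from 1.72 in set G to 2.17 in set F, and each set alone called it higher. Set G had imatinib samples at 12.42, 12.44 and 12.38, against mock samples at 10.56, 10.77 and 10.75.

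H2AC8 had a lowest, median and highest level of 7.32, 8.89 and 9.81 in imatinib samples, against 6.45, 7.66 and 8.91 in mock samples. It rose by 1.22 ± 0.05 log2, or 2.32-fold (SE, n = 24 per treatment, limma adjusted p = 5.9e-27), between 1.04 in set E and 1.55 in set F. H2AC6 had levels of 9.14, 10.56 and 11.55 in imatinib samples, against 8.58, 9.77 and 10.76 in mock samples, taken in the same order. Both genes were called higher in each set alone, and in every set their imatinib samples stood clear of their mock samples. The change of H2AC6 was 0.87 ± 0.04 log2, or 1.82-fold (limma adjusted p = 6.48e-24).

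**Figure D2:**
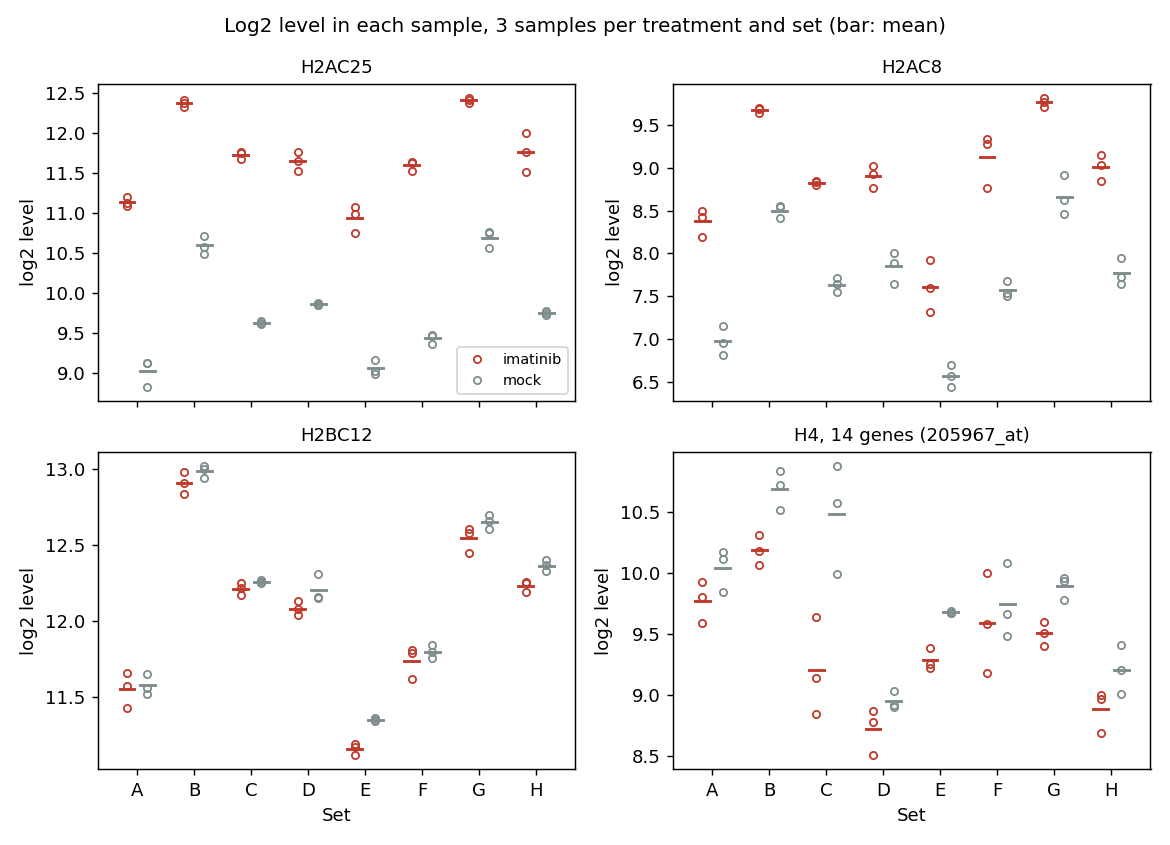
Log2 level of H2AC25, H2AC8, H2BC12 and the brightest H4 probe set in each sample, by set, with imatinib in red on the left and mock in grey on the right of each pair; bars are means of 3 samples. H2AC25 and H2AC8 show separate groups in all 8 sets, H2BC12 shows a shift of -0.09 with overlap in some sets, and the H4 probe set shows its widest gap in set C.

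Further H2A genes moved the same way by less. H2AC17 had a lowest, median and highest level of 5.98, 6.89 and 8.23 in imatinib samples, against 5.52, 5.93 and 7.47 in mock samples, and rose by 0.77 ± 0.05 log2. H2AC14 rose by 0.51 ± 0.04. In both genes the imatinib samples lay above the mock samples in all 8 sets. H2AC15 rose by 0.40 and H2AC4 by 0.25, both from levels below the median of all probe sets. A pair of probe sets each annotated with 6 H2A genes, designed on H2AC13 and H2AC11, rose by 0.63 and 0.59. By the annotation their signal cannot be assigned to 1 gene. More widely, 14 members have the suffix x_at, which marks probe sets that can match several similar sequences. Among members with 1 gene symbol these are H2AC14, H2BC6, H2BC9, H2BC12L, H3C8, H4C11 and both probe sets of H2BC5. Their changes may include related genes.

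The HIST2 genes H2AC18 and H2AC19, near-identical copies on chromosome 1, had small changes. Their brightest probe set had levels of 10.95 to 12.76 in imatinib samples (median 12.1), against 10.79 to 12.65 in mock samples (median 11.86), and a change of 0.17 ± 0.03. A second probe set of the pair rose by 0.16, and the third did not pass, with a change of 0.00 (limma adjusted p = 0.945). H2AC16 did not pass either, at 0.04 (limma adjusted p = 0.34). These were the 2 H2A members without a call.

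Many H2A genes lie head to head with an H2B gene and share the stretch of DNA between them. Of 11 such pairs with overlapping promoter windows, 3 had a probe set annotated with that gene alone for both genes; the one of H2AC14 is an x_at probe set. H2AC17 changed by 0.77 and its neighbour H2BC17 by 0.18; the difference between them was 0.58 ± 0.20 (SD, n = 8 sets), above 0 in 8 of 8 sets. H2AC14 changed by 0.51 and H2BC14 by 0.13, a difference of 0.37 ± 0.14 (SD, n = 8 sets), also above 0 in 8 of 8 sets. For both pairs the two-sided exact sign-flip permutation p was 0.00781, the smallest that 8 sets allow, and 0.0117 after adjustment over 3 pairs. H2AC15 changed by 0.40 and H2BC15 by 0.28; their difference of 0.12 ± 0.14 was above 0 in 6 of 8 sets (two-sided exact permutation p = 0.0469, adjusted 0.0469). Of the 6 genes, H2AC15 and the 3 H2B genes had levels below the median of all probe sets, where a log2 change can be compressed, and whether that bears on the differences was not tested.

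**Figure D3:**
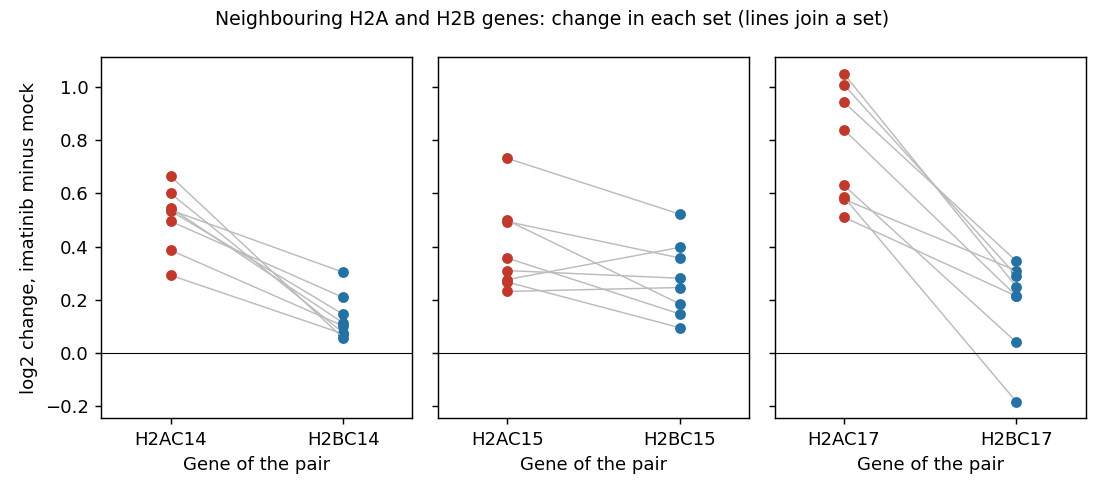
Log2 change (imatinib minus mock) of neighbouring H2A (left in each panel) and H2B (right) genes in the 8 sets; lines join the values of a set. H2AC14 and H2AC17 lie above their H2B neighbours in all 8 sets, by 0.37 and 0.58 on average, and H2AC15 lies above H2BC15 in 6 sets.

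The H2B genes, which supply the partner of H2A in the dimer, moved both ways. H2BC5 had a lowest, median and highest level of 9.68, 10.88 and 11.91 in imatinib samples, against 9.47, 10.39 and 11.38 in mock samples. The imatinib samples lay above all mock samples in 7 of 8 sets, and the change was 0.48 ± 0.04 log2 (limma adjusted p = 2.66e-16). Its other probe set did not pass, at 0.03 (limma adjusted p = 0.567). H2BC21, the H2B gene of the HIST2 cluster, rose by 0.23 ± 0.04, with levels of 7.80 to 10.58 in imatinib samples (median 9.65) and 7.86 to 10.23 in mock samples (median 9.43).

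H2BC12 had a lowest, median and highest level of 11.12, 12.15 and 12.98 in imatinib samples, against 11.34, 12.26 and 13.02 in mock samples. It was lower in all 8 sets, with groups apart in 4, and fell by 0.09 ± 0.02 log2 (limma adjusted p = 0.000169); after quantile normalization the change was -0.00 (adjusted p = 0.988). H2BC12L, an H2B-like gene on chromosome 21 outside the clusters, fell by 0.18 ± 0.03, with levels of 10.84 to 12.75 in imatinib samples (median 11.85) and 10.99 to 12.95 in mock samples (median 12.14). It was below 0 in all 8 sets. H2BC11 gave opposite answers by probe set. Its own probe set, below the median level, fell by 0.28, while both probe sets annotated with H2BC11 and H2BC8 rose, by 0.50 and 0.41. Which of these genes the shared probe sets detect cannot be told apart.

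Among the H3 members, the brightest probe set had the largest change. The annotation names 10 H3 genes for it, and it was designed on H3C10. Its lowest, median and highest levels were 8.52, 10.14 and 11.19 in imatinib samples, against 8.06, 9.27 and 10.64 in mock samples. The groups did not overlap in any set, and it rose by 0.72 ± 0.04 log2, or 1.65-fold (limma adjusted p = 1.22e-20), between 0.54 in set D and 1.03 in set F. The other probe set for 10 H3 genes rose by 0.08 (adjusted p = 0.0476). H3C8 rose by 0.26 ± 0.03, with imatinib samples at 6.08 to 7.63 (median 6.38) and mock samples at 5.94 to 7.31 (median 6.21), and H3C6 rose by 0.11 ± 0.03. H3C2, H3C3 and H3C11 had changes of -0.02, -0.02 and 0.02 that did not pass. The probe set annotated with both H3C4 and the H2A gene H2AC7 rose by 0.46 ± 0.04. Its levels were 6.73 to 8.91 (median 7.86) in imatinib samples and 6.32 to 8.23 (median 7.39) in mock samples.

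Nearly all H4 genes encode the same protein (H4C7 encodes a divergent form), and their probe sets changed in both directions. H4C5 had a lowest, median and highest level of 6.42, 7.57 and 8.72 in imatinib samples, against 5.99, 7.14 and 8.20 in mock samples. Its imatinib samples lay above its mock samples in all 8 sets, and it rose by 0.42 ± 0.04 log2 (limma adjusted p = 6.96e-15). H4C11 rose by 0.40 ± 0.04 by the annotation, although the accession its probe set was designed on belongs to H4C12 in RefSeq. H4C4 rose by 0.49 from a level below the median of all probe sets. H4C9 rose by 0.15 ± 0.03, above 0 in 5 of 8 sets.

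The brightest H4 probe set went the other way. The annotation names 14 H4 genes for it, its design was on H4C3, and which of them its probes detect was not tested. Its lowest, median and highest levels were 8.51, 9.39 and 10.31 in imatinib samples, against 8.90, 9.81 and 10.87 in mock samples. It was below 0 in all 8 sets, with groups apart in 6, and fell by 0.44 ± 0.08 log2 (limma adjusted p = 1.53e-06). In set C it had 9.64, 9.14 and 8.84 in imatinib samples, against 10.87, 10.57 and 9.99 in mock samples, the widest gap of any set at -1.27; the other 7 sets lay between -0.50 and -0.15, and without set C it fell by 0.32. Of the 5 probe sets for these 14 genes, 2 were higher, 1 was lower and 2 were not called. The one designed on H4C11 rose by 0.23 ± 0.04 and the one designed on H4C14 by 0.16. Probe sets with the same annotation therefore changed in opposite directions. H4C8 fell by 0.16 ± 0.06 (limma adjusted p = 0.0152), in 5 of 8 sets, and did not pass without set C (adjusted p = 0.0812), without set D (0.05004) or when the 8 within-set differences were tested (0.0604).

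The linker histones changed little. H1-2, the brightest H1 member, had a lowest, median and highest level of 11.06, 11.83 and 12.59 in imatinib samples, against 11.26, 11.87 and 12.65 in mock samples, and fell by 0.09 ± 0.03 log2 (limma adjusted p = 0.00285). The ranges overlap almost entirely, the groups were apart in 2 sets, and after quantile normalization the change was -0.03 (adjusted p = 0.322). H1-3, another somatic linker histone, rose by 0.12 ± 0.03, and by 0.08 without set C (limma adjusted p = 0.0183). H1-6, a linker histone known from the testis, rose by 0.22 ± 0.03 in levels of 5.57 to 8.09 (median 6.78) in imatinib samples and 5.40 to 7.81 (median 6.47) in mock samples. H1-10, a linker histone gene outside the clusters on chromosome 3 that is expressed independently of replication, did not pass, at 0.11 ± 0.05 (limma adjusted p = 0.0615), while after quantile normalization it was 0.18 (adjusted p = 0.000491).

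Set by set, more members were called higher than lower in each of the 8 sets; over all probe sets this was also so in sets B, D and H, and in the other 5 sets lower calls were more numerous. Set A called 30 members, all higher, against 28.3% of all probe sets called in either direction. Set B called 31, of which 28 were higher and 3 lower, against 47.7% of all probe sets. Set C called 25, with 21 higher and 4 lower, against 39.0%, and set D called 22, with 20 higher and 2 lower, against 38.9%. Set E had the fewest, 13, with 12 higher and 1 lower, against 19.4%. Set F called 17, all higher, against 16.5%. In set G 22 were called, 20 higher and 2 lower, against 27.5%, and in set H 26 were called, 25 higher and 1 lower, against 24.1%. The share of members called was near that of all probe sets in sets B, C, D and E. Some counts changed when 1 sample was left out, which also makes its group smaller. Set A called 22 to 26 members in place of 30, whichever sample was left out. The 25 calls of set C were 16 without mock replicate 2 or without imatinib replicate 1, and the 22 of set D were 14 without imatinib replicate 2. The 13 calls of set E were 7 without imatinib replicate 3, 8 without mock replicate 1 or 2 and 19 without imatinib replicate 1. The 17 of set F were 10 without imatinib replicate 3 and 11 without mock replicate 1. The median change of the members was between 0.10 and 0.19 in the sets, and that of the H2A members between 0.29 and 0.66. By the set-by-treatment test 3 members changed by unequal amounts across sets in the fit of limma, against 7.20% of all probe sets; it was 0 members without set C and 1 without set G.

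Among the listed histone variants with genes outside the clusters, no gene was called higher on its brightest probe set. Of 13 listed, 8 had a probe set with 1 symbol, and on the brightest ones 0 were higher and 4 lower, with a median of -0.16, against 41.6% higher and 27.1% lower over 11963 genes with 1 probe set each. CENPA, the H3 variant of the centromere, fell by 0.70 ± 0.03, MACROH2A1, an H2A variant with a macro domain, fell by 0.47 ± 0.03, H2AZ1, the variant H2A.Z, fell by 0.37 ± 0.04, and H2AX, the variant phosphorylated at DNA breaks, fell by 0.27 ± 0.03. Of the other probe sets of MACROH2A1, the brighter one fell by 0.54 and the dimmer one rose by 0.24, and both passed. For H2AX the brightest of the others fell by 0.29 and the dimmest rose by 0.11, both passing, while another did not pass, at 0.05. H2AZ2 did not pass on its brightest probe set, at -0.05, while dimmer ones had changes of -0.45 and -0.28 and passed. No test compared these variants with the clustered genes.

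Of 23 measured genes, of 30 listed, that transcribe or process histone mRNA, 6 were higher and 14 lower, with a median of -0.14, against 41.6% higher and 27.1% lower over all genes; the difference was not tested. NCBP1, a subunit of the nuclear cap-binding complex, fell by 0.58 ± 0.05, TENT4A, a poly-A polymerase, fell by 0.48 ± 0.04, and YY1, a transcription factor, fell by 0.44 ± 0.04. NFYC, a subunit of the factor that binds the CCAAT box, rose by 0.51 ± 0.04, while NFYA and NFYB, its partners, fell by 0.25 and fell by 0.10. The following genes of the list were chosen after their values were seen, as were NFYA and NFYB. SLBP, which binds the stem-loop, rose by 0.21, between 0.01 in set E and 0.42 in set F. HINFP, a factor of H4 transcription, rose by 0.35. NPAT, a coactivator of histone genes, rose by 0.07 on its brightest probe set, with 2 dimmer ones that did not pass. ZNF473 fell by 0.26 and was below 0 in all 8 sets. CASP8AP2 did not pass, at 0.10 (limma adjusted p = 0.121).

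Of 27 measured histone chaperones and modifiers of new histones, of 28 listed, 11 were higher and 10 lower, with a median of 0.04; the share of higher genes was near the 41.6% of all genes, of which 27.1% were lower. IPO4, which imports new H3 and H4 into the nucleus, fell by 0.92 ± 0.04, HJURP, the chaperone of CENPA, fell by 0.78 ± 0.04, and SSRP1, a subunit of the FACT complex, fell by 0.50 ± 0.04. ANP32B, an acidic nuclear chaperone, rose by 0.46 ± 0.02. Of 23 S phase genes measured of 24 listed, 7 were higher and 12 lower, with a median of -0.10, against the same 41.6% and 27.1%, and no test compared the list with other genes. CCNA2, the cyclin of S phase and G2, fell by 0.59 ± 0.04 and CDC45, a part of the replicative helicase, fell by 0.45 ± 0.03, whereas CDT1, which licenses origins, rose by 0.61 ± 0.05 and CCNE1, the cyclin of the G1 to S transition, rose by 0.38 ± 0.03. The difference in the mean level of the S phase list lay between -0.15 and 0.03 in the 8 sets, and its part in the histone changes was not tested.

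**Figure D4:**
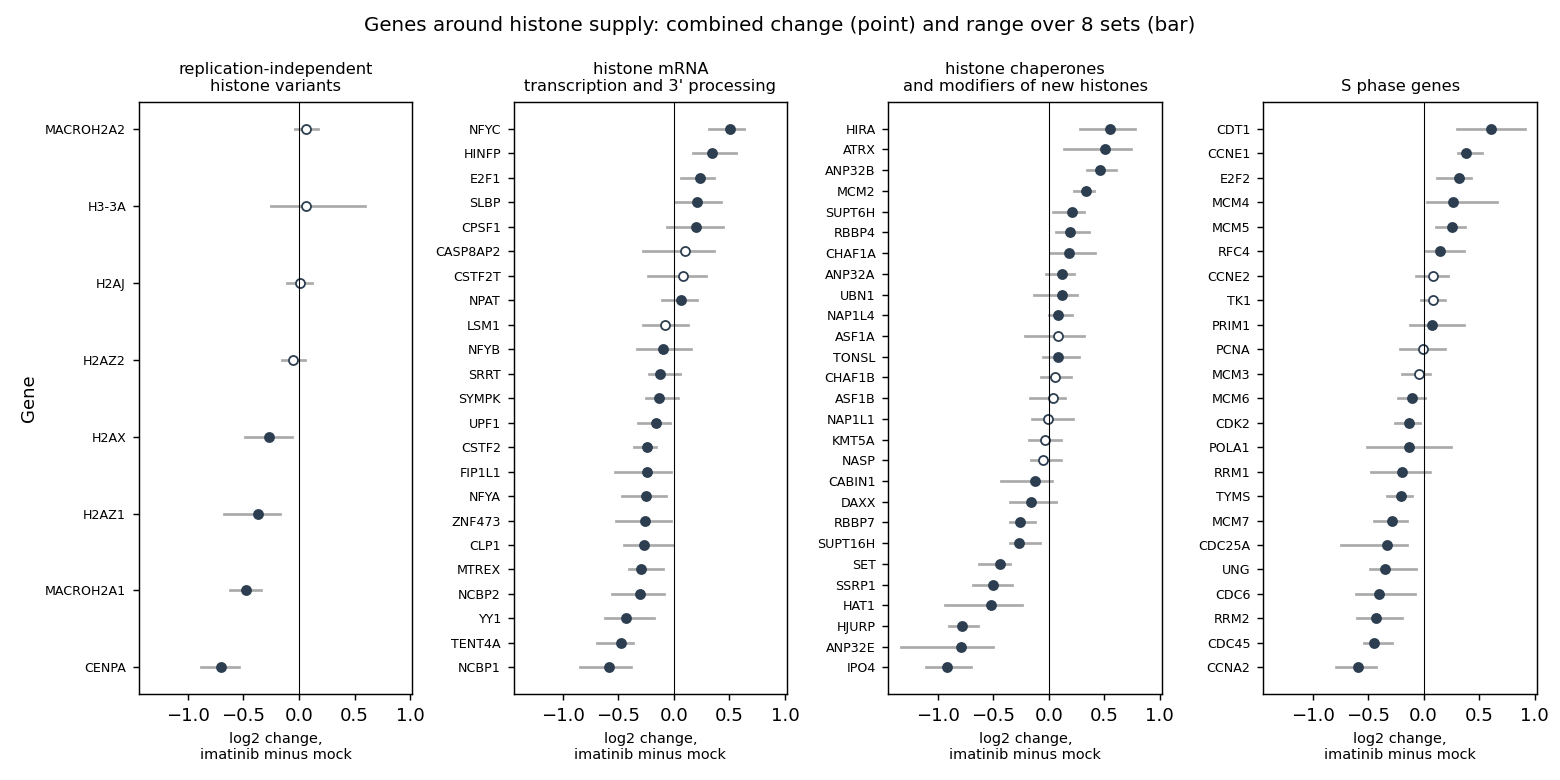
Log2 change (imatinib minus mock) of histone variants outside the clusters, genes of histone mRNA transcription and processing, histone chaperones and modifiers, and S phase genes. Points are combined changes, filled where the adjusted p was below 0.05, and bars span the lowest to the highest of the 8 sets. IPO4 lies lowest at -0.92 and CDT1 highest at 0.61.

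The line was checked by its markers. All 8 measured K562 markers of 10 listed were at or above the median level and higher after imatinib, among them HBZ and HBE1, the embryonic globin genes, by 3.13 and 1.04, and the erythroid factors TAL1 and KLF1 by 2.44 and 2.22. Averaged over these 8 genes, levels lay between 10.6 and 12.2 in imatinib samples and between 9.16 and 10.9 in mock samples. Of 9 measured T and B cell markers 7 were at or above the median level, 5 were higher and 1 lower, with averages of 6.08 to 7.71 in imatinib samples and 6.19 to 7.72 in mock samples; CD3D fell by 1.73, CD5 rose by 0.22, CD22 by 0.19 and CD3E by 0.17. Of 9 measured monocyte and granulocyte markers 0 were at or above the median level and 3 were higher. Over all genes with 1 probe set each, 41.6% were higher and 27.1% lower. The share of higher monocyte and granulocyte markers lay below that of all genes. The part of these marker changes in the histone values was not tested. Array means lay between 5.89 and 7.62 over the sets and differed by at most 0.053 within a set.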

How the data were processed

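Affymetrix arrays measured RNA of 24 imatinib-treated and 24 mock-treated K562 samples. The authors deposited 1 log2 value per probe set and sample; a log2 scale was inferred from their range (2.41 to 14.9). Background correction, probe summary and normalization: not given in the sources used here. For arrays, their number limits the precision. Deposited values were used unchanged, without the 68 control probe sets. Symbols came from the platform annotation, updated through the RefSeq table of GRCh38.p14; of the 22215 probe sets 19065 had 1 symbol, 1043 several and 2107 none. A listed gene was represented by its brightest probe set with 1 symbol.

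The test was limma 3.58.1 (R 4.3.3), two-sided, with Benjamini-Hochberg adjustment over 22215 probe sets and a threshold of 0.05. The combined fit had the set as a factor; each set was also fitted alone, and set-by-treatment terms were tested jointly. Errors are standard errors from the combined fit except where stated. The 3 gene pairs were tested with an exact sign-flip permutation over 8 set differences. The fits were tested on simulated data. Figures were drawn with matplotlib 3.10.9.

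The members and gene lists were chosen with earlier results of these data known. Named with values were called member genes at or above the median level with the largest changes (18 qualified for at most 24 places), members outside the clusters, the brightest probe set of each type, and up to 4 genes of each list at that level with the smallest p; other genes named were chosen after their values were seen. Alternatives were centred arrays, quantile normalization within sets, a filter on level, replicate numbers as a block, 8 within-set differences, the set as a random block, each set or replicate left out, members with 1 symbol, and the mean of a gene's probe sets. No replicates held identical values (closest pair: largest difference 0.67).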

Additional observations from a re-analysis of the deposited data

Results flagged for a closer look

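In 3 members the change was not of equal size across sets by the joint set-by-treatment test of limma, while the direction of H2AC25 and the H4 probe set was the same in all 8 sets. H2AC25 rose by between 1.72 in set G and 2.17 in set F (adjusted p = 0.0427). The brightest H4 probe set, annotated with 14 genes, had a change of -1.27 in set C and between -0.50 and -0.15 in the other 7 sets (adjusted p = 0.0346). H4C9 had changes between -0.03 and 0.35, above 0 in 5 of 8 sets (adjusted p = 0.0318). Of all probe sets, 7.20% differed between sets by this test, and without set C 0 members did; the count was 1 without mock replicate 2, mock replicate 3 or imatinib replicate 3 of set C or mock replicate 1 of set H, and 5 without imatinib replicate 1 of set E. Groups of 3 samples were not searched for samples far from the others.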

How the results depend on the processing

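The combined counts of 38 higher and 6 lower members were 34 and 9 with centred arrays and 40 and 6 after quantile normalization. Members higher numbered 25 when only probe sets at or above the median level were tested and 25 when only members with 1 symbol were counted, since both settings hold fewer members. With members of 1 symbol, calls were 8 (set E), 9 (set F), 13 (set G) and 16 (set H). Members whose change differed between sets numbered 0 without set C, 1 without set G and 1 with the replicate block, against 3. Imatinib and mock samples with the same number deviated with a median correlation of 0.016 over 24 pairs (-0.52 to 0.49). Samples with different numbers had a median of -0.032 (-0.60 to 0.57). With 3 samples a group, these values cannot show whether samples of the same number were paired in some sets. With the numbers as a block the combined counts were 38 and 6. The 4 histone supply lists (8, 23, 27 and 23 measured genes) together had 24 higher and 40 lower genes in the main fit. Over all genes 41.6% were higher and 27.1% lower. Leaving out 1 replicate at a time gave 20 to 28 higher and 40 to 41 lower genes of these lists. It gave 36 to 40 higher and 6 lower members, and 1 to 5 members that differed between sets. Calls in single sets then ranged from 22 to 26 in A, 25 to 29 in B, 16 to 24 in C, 14 to 22 in D, 7 to 19 in E, 10 to 18 in F, 16 to 27 in G and 20 to 27 in H. For 47 named genes and probe sets, 2906 of 2927 alternative values kept direction and side of the threshold, 6 lost the call (H2BC12, H1-2, H4C8 and CD3E), 15 gained it (H1-10) and 0 reversed; the cause was not tested. Probe sets annotated with several genes, unknown normalization and targets that may favour tailed mRNA limit what a level stands for. Signal over background was not analysed here.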
